A study of Mus musculus with 6 samples.

Results

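Transcript levels of 8 genes of the sympathetic nervous system and of catecholamine synthesis were examined in tissue next to the mouse dorsal aorta. The genes were taken by name from the platform annotation, and all 8 were found, each with 1 probe set, among the 24675 named genes of the table. They were the transcription factor genes Gata3, Phox2a, Hand2 and Insm1, the enzyme genes Th, Ddc and Dbh, and the vesicular transporter gene Slc18a1. Embryos of C57Bl/6 mice at embryonic day 10.5 were frozen without fixation and cut into sections of 20 µm, and tissue was taken by laser microdissection. The dorsal region reached from the notochord to the aortic roof, the ventral region lay beneath the aorta, and the same embryos gave both, with 3 biological replicates per region. The number of embryos or sections behind a replicate was not stated in the labels. Between 200 and 1000 pg of RNA per sample was amplified before hybridisation to Affymetrix mouse Gene 2.0 ST arrays. Levels are given as log2 RMA signals, in which 1 unit is a doubling.

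Sympathetic neurons arise from neural crest cells that migrate ventrally and gather beside the dorsal aorta, where BMP proteins made by the aortic wall start their differentiation. A network of transcription factors, with Phox2a, Hand2, Gata3 and Insm1 among its members, then turns on the genes of noradrenaline synthesis. Tyrosine hydroxylase makes L-DOPA, DOPA decarboxylase turns it into dopamine, vesicular transporters load dopamine into vesicles, and dopamine beta-hydroxylase converts it there to noradrenaline. In the embryonic aorta region, Gata3 and catecholamines are known to promote the emergence of blood stem cells. The comparison of the regions asks on which side of the aorta these transcripts were more abundant.

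None of the 8 genes passed the threshold of an adjusted p of 0.05 between the regions, in a fit in which 0.0% of all genes did. Ddc, the gene of DOPA decarboxylase, was the member whose arrays did not overlap between the regions, with a ventral level 1.59-fold above the dorsal level. The other 7 genes overlapped between the regions, and over all genes 18.7% did not overlap. The fit placed 4 of the 8 genes higher in ventral and 4 higher in dorsal tissue, with a median difference of 0.00 on the log2 scale. Over all genes that median was -0.06, and 42.0% of genes were higher in ventral tissue. Log2 differences are ventral minus dorsal throughout, and adjusted p-values are Benjamini-Hochberg values over all 24675 genes from limma. In bulk tissue, fewer cells of a type cannot be told apart from less RNA per cell.

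By mean signal over the 6 arrays, Insm1, Th, Hand2, Phox2a and Ddc stood at percentiles 94.1, 86.0, 85.6, 75.9 and 72.0 of all genes. Gata3, Dbh and Slc18a1 stood lower, at 44.7, 43.4 and 31.5. The array medians lay between 3.20 and 3.27, and member means over the 6 arrays ran from 2.89 for Slc18a1 to 4.79 for Insm1. As a guide to the signal of genes that belong to another organ, 1360 odorant and vomeronasal receptor genes, a set chosen after the data had been seen, had a median mean signal of 2.59 and a 95th percentile of 4.66. Insm1 lay above that percentile and the other 7 members did not. Brightness depends on a gene's probes, so these values do not rank the genes by transcript number. Detection calls were not used here, and a small difference in a low signal can understate the difference in RNA. In the 78 marker genes listed for neighbouring cell types, 74 were measured and 0 passed the threshold. Over all genes 0.0% passed, so that count does not set the markers apart from other genes.

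**Figure D1:**
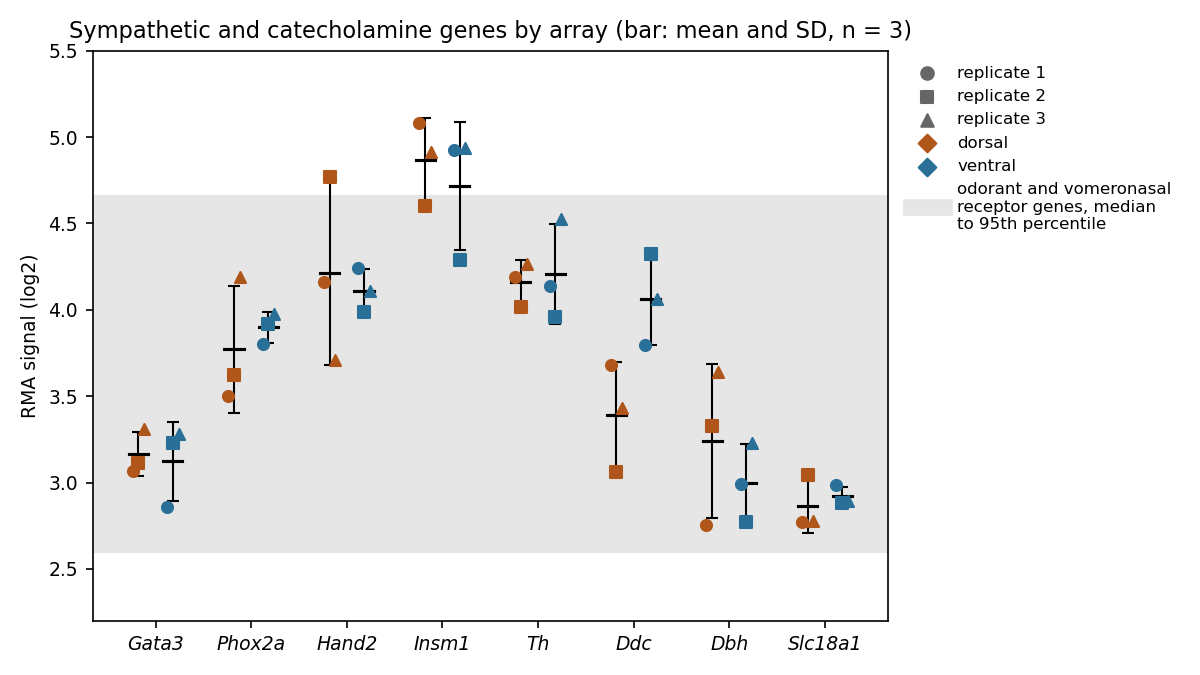
RMA signal on the log2 scale (vertical axis) of the 8 genes in each of the 6 arrays. Orange points are dorsal and blue points ventral arrays, the symbol gives the replicate number, and bars show the mean and SD over 3 arrays. The grey band runs from the median, 2.59, to the 95th percentile, 4.66, of 1360 odorant and vomeronasal receptor genes. The regions overlap for every gene shown but Ddc.

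Among the transcription factors, Gata3, a zinc finger protein needed for sympathetic neuron survival and noradrenaline synthesis, had signals of 3.07, 3.11 and 3.31 in dorsal arrays 1, 2 and 3. In the ventral arrays of the same numbers it had 2.86, 3.23 and 3.28. The ventral arrays held the lowest value, and the other 5 values lay within the same narrow band on both sides. The difference was -0.04 ± 0.17 (SE), with a 95% interval from -0.47 to 0.39 and an adjusted p of 0.941 in limma. Gata3 exceeded the median of its array in 3 of the 6 arrays. Gata3 is also made by cells of the nephric duct, whose 5 listed markers had a mean signal of 3.25 to 3.38 across dorsal arrays and 3.11 to 3.18 across ventral ones. Of these markers 1 had a positive and 4 a negative difference. Pax8 at -0.47 and Wnt9b at -0.43 lay wholly higher in dorsal arrays, Lhx1 at 0.32 wholly higher in ventral arrays, and Pax2 at -0.29 and Emx2 at -0.01 overlapped. The part of that tissue in the Gata3 values was not tested.

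Phox2a, a homeodomain factor of noradrenergic neurons, had dorsal signals of 3.50, 3.62 and 4.19 in arrays 1, 2 and 3, against ventral signals of 3.80, 3.92 and 3.97. The highest and the lowest values were both dorsal, and the ventral arrays lay between them. Phox2a had a dorsal SD of 0.37 and a ventral SD of 0.09. Its difference was 0.13 ± 0.19 (SE), with a 95% interval from -0.35 to 0.60 and an adjusted p of 0.825 in limma.

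Hand2, a helix-loop-helix factor of sympathetic neurons that is also made in lateral plate mesoderm, ran from 3.71 in dorsal array 3 through 4.16 in dorsal array 1 to 4.77 in dorsal array 2. The ventral arrays 1, 2 and 3 had 4.24, 3.99 and 4.11. The dorsal side thus held both ends of the range, with an SD of 0.53 against 0.13 on the ventral side. The difference was -0.10 ± 0.27 (SE) with an adjusted p of 0.902 in limma, and without both arrays numbered 2 it turned to 0.24. Its relative Hand1 averaged 4.46 ± 0.26 dorsally and 4.22 ± 0.42 ventrally (SD, n = 3 each). The 5 splanchnic mesoderm markers had mean signals of 3.99 to 4.25 across dorsal arrays and 3.82 to 4.19 across ventral ones, and their part in the Hand2 values was not tested.

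Insm1, a zinc finger factor of newly formed neurons and of endocrine cells, had signals of 5.08, 4.60 and 4.92 in dorsal arrays 1, 2 and 3. Its ventral signals in the same order were 4.92, 4.29 and 4.94. On each side the array numbered 2 was the lowest. The difference was -0.15 ± 0.17 (SE), with a 95% interval from -0.58 to 0.28 and an adjusted p of 0.769 in limma. Of the 4 transcription factors, 1 had a positive and 3 a negative difference, and 0 passed the threshold.

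The enzyme genes Th, Ddc and Dbh are shown with the bases before their transcription starts, as the consecutive steps from tyrosine to noradrenaline. Sequences are 250 bases upstream of RefSeq transcript starts in GRCm38.p6, written 5′ to 3′ on the gene's strand. RefSeq windows were matched for 6 of the 8 members. Capitals mark the motifs found on either strand among TGACGTCA (the cAMP response element), ATTA (the homeodomain core), GATAA (the GATA core) and CAGCTG (an E-box).
Th, chr7:142899996-142900245, minus strand: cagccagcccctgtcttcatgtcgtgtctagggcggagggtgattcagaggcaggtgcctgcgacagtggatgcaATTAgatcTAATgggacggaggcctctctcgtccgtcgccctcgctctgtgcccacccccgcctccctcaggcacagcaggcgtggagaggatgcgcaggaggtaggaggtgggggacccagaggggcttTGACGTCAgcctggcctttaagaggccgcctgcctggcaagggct
Ddc, upstream start, chr11:11898145-11898394, minus strand: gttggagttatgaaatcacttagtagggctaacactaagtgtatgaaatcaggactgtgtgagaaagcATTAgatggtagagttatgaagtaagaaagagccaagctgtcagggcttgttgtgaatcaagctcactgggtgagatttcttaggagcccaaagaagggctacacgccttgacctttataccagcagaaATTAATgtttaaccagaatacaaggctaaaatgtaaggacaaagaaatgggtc
Ddc, downstream start, chr11:11890409-11890658, minus strand: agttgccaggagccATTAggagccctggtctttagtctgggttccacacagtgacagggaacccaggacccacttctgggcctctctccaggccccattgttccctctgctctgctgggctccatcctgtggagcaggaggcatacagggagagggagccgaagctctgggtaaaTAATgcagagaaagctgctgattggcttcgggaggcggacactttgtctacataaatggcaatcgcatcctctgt
Dbh, chr2:27165257-27165506, plus strand: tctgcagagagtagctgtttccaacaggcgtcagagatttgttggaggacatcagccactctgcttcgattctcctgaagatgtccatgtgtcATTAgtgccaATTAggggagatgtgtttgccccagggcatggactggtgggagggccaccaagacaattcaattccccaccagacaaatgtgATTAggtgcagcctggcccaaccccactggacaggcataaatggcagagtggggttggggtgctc

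The Th window held the full cAMP response element, which began 45 bases before the start, and none of the other 3 windows shown held it. The element occurred in 1.55% of 32841 windows of this length. The homeodomain core was present in all 4 windows, with 2 matches for Th, 3 for Dbh, 3 at the upstream and 2 at the downstream Ddc start. Matches at the upstream Ddc start overlapped, as ATTAAT holds the core on both strands. The core is common and occurred in 54.9% of windows, so its presence does not set these genes apart. GATAA and CAGCTG, found in 22.6% and 13.0% of windows, had no match in the 4 shown. Matches describe the letters only.

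Th, the gene of the rate-limiting enzyme of catecholamine synthesis, had 4.19, 4.02 and 4.27 in dorsal arrays 1, 2 and 3. The ventral arrays had 4.14, 3.96 and 4.52, so the lowest and the highest value were both ventral and the groups overlapped. The difference was 0.05 ± 0.18 (SE), with a 95% interval from -0.39 to 0.48 and an adjusted p of 0.933 in limma. On the linear scale this interval ran up to 1.40-fold higher in ventral and up to 1.31-fold higher in dorsal tissue.

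Ddc had 3.68, 3.06 and 3.43 in dorsal arrays 1, 2 and 3. Its ventral signals in the same order were 3.80, 4.33 and 4.06. Every ventral array was higher than every dorsal array, although dorsal array 1 and ventral array 1 lay only 0.12 apart. In arrays numbered 2 the gap was 1.26 and in those numbered 3 it was 0.63. Means were 3.39 ± 0.31 dorsally and 4.06 ± 0.27 ventrally (SD, n = 3 each). The difference was 0.67 ± 0.26 (SE), with a 95% interval from 0.04 to 1.30, an unadjusted p of 0.041 and an adjusted p of 0.481 in limma. An unadjusted p under 0.05 was found in 10.2% of all genes, and with a higher ventral level in 4.32%. The arrays did not overlap in 18.7% of all genes, and ventral arrays lay wholly above dorsal arrays in 6.74%, so 1 member of 8 is near that background. Without both arrays numbered 2 the Ddc difference was 0.37, with an adjusted p of 0.722.

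Transcripts of Ddc are known from neurons and also from gut and kidney epithelium, through alternative exons at their 5′ ends. The table holds 1 value for the gene, so transcripts from the upstream and the downstream start shown above cannot be told apart. The 6 gut and endocrine endoderm markers had mean signals of 3.14 to 3.34 across dorsal arrays and 3.15 to 3.40 across ventral ones. Among them Cldn6, a tight junction protein, had a difference of 0.55, and Epcam, an epithelial adhesion protein, one of -0.24. Their part in the Ddc difference was not tested.

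Dbh, the gene of dopamine beta-hydroxylase and the most specific marker of noradrenergic cells among the enzymes, had 2.76, 3.33 and 3.64 in dorsal arrays 1, 2 and 3. The ventral arrays had 2.99, 2.77 and 3.23. The groups overlapped, since dorsal array 1 was the lowest of all, and 2 of the 6 arrays exceeded their median. The difference was -0.24 ± 0.22 (SE), with a 95% interval from -0.78 to 0.30 and an adjusted p of 0.706 in limma. It was -0.49 without dorsal array 1 and -0.04 without dorsal array 3, in fits without the replicate block. Across the pathway, the substrate-converting steps therefore had differences of 0.05 for Th, 0.67 for Ddc and -0.24 for Dbh.

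Slc18a1, the vesicular monoamine transporter of chromaffin cells, had 2.77, 3.05 and 2.77 in dorsal arrays 1, 2 and 3, against ventral signals of 2.98, 2.88 and 2.89. All 6 values lay below the median of their array. The difference was 0.06 ± 0.18 (SE) with an adjusted p of 0.921 in limma. Its relative Slc18a2, the monoamine transporter of neurons, averaged 3.20 ± 0.04 dorsally and 3.11 ± 0.12 ventrally (SD, n = 3 each). For the 7 members other than Ddc, no 95% interval reached beyond 1.72-fold in either direction on the scale of these signals. That limit came from Dbh, toward a higher dorsal level.

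**Figure D2:**
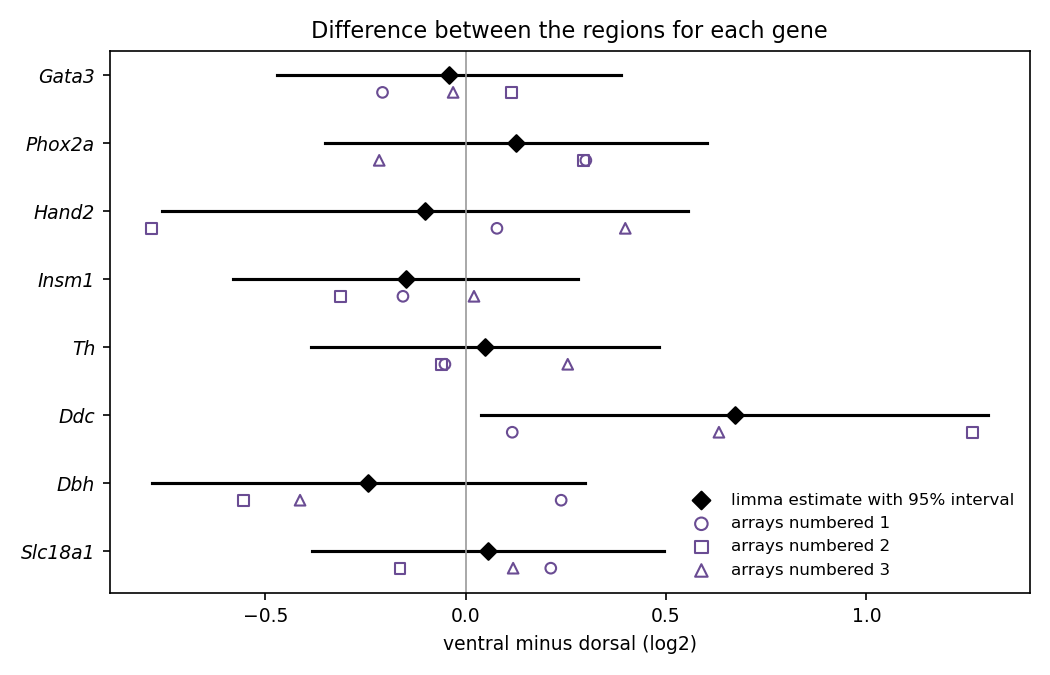
Ventral minus dorsal difference on the log2 scale (horizontal axis) for the 8 genes. Diamonds and lines are the limma estimate and its 95% interval, and open symbols are the differences between arrays of equal number. The Ddc interval, 0.04 to 1.30, lies above 0 before adjustment, and the other 7 intervals include 0.

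The spread between replicates differed by side and gene. The dorsal SD was the larger in 5 of the 8 members, against 66.0% of all genes. The median SD of the members was 0.28 in dorsal and 0.23 in ventral tissue, against 0.26 and 0.18 over all genes. Differences between arrays of equal number kept one sign for Ddc alone among the members, which 35.0% of all genes did in either direction.

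Ddc, Hand2 and Dbh varied most over the 6 arrays, with SDs of 0.45, 0.35 and 0.34. Genes of most similar pattern were ranked by the root mean square difference of their deviations from the gene mean over the 6 arrays. For Ddc they were the non-coding RNA gene Cep112it (0.075), the predicted gene Gm9640 (0.090) and the microRNA gene Mir5110 (0.094). For Hand2 they were Rnf2, a ubiquitin ligase of the Polycomb complex (0.037), the odorant receptor gene Olfr919 (0.045) and Gm16315 (0.049). For Dbh they were Krt19, an epithelial keratin (0.063), the non-coding RNA gene Sorbs2os (0.064) and Igfbp1, an insulin-like growth factor binding protein (0.065). Within a difference of 0.2 lay 140 genes for Ddc, 826 for Hand2 and 916 for Dbh, and none of the genes named here as nearest was a member.

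The other genes of the pathway were taken from 6 lists with 64 genes, of which 51 were measured and 0 passed the threshold. Their adjusted p-values in limma lay between 0.469 and 0.989. Of the 51 genes, 20 had a positive and 31 a negative difference, and the median was -0.06, as over all genes. Ventral arrays lay wholly above dorsal arrays for 4 genes, or 7.84%, and wholly below for 6, or 11.8%. The shares over all genes were 6.74% and 12.0%.

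The 10 listed sympathetic regulators had 8 measured genes, 3 with positive and 5 with negative differences, a median of -0.15 and 0 past the threshold. Gata2, which acts beside Gata3 in sympathetic neurons and is also a factor of blood stem cells, had 3.86, 3.56 and 3.64 in dorsal and 3.99, 4.34 and 3.67 in ventral arrays 1, 2 and 3, with a difference of 0.32 and an adjusted p of 0.622 in limma. Hmx1, a homeodomain factor of noradrenergic neurons, had 2.74, 4.35 and 3.77 in dorsal and 2.94, 2.99 and 2.35 in ventral arrays 1, 2 and 3. Its difference of -0.86 ± 0.35 (SE) had an adjusted p of 0.490, and the regions overlapped through dorsal array 1. Sox4, a factor of developing neurons, had a difference of -0.34.

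Genes of cofactor supply, storage and uptake numbered 14, all measured, with 8 positive and 6 negative differences and a median of 0.08. Cyb561, the vesicle cytochrome that regenerates the ascorbate used by dopamine beta-hydroxylase, had 4.38, 3.93 and 4.58 in dorsal and 4.65, 4.76 and 4.86 in ventral arrays 1, 2 and 3. The regions did not overlap, and the difference of 0.46 ± 0.20 (SE) had an adjusted p of 0.495 in limma. Chga, the vesicle protein chromogranin A, had 4.62, 4.74 and 3.89 in dorsal and 4.68, 5.11 and 4.95 in ventral arrays. Its regions overlapped, with a difference of 0.50 and an adjusted p of 0.532. Slc6a2, the noradrenaline uptake transporter, averaged 3.21 ± 0.02 dorsally and 3.46 ± 0.19 ventrally (SD, n = 3 each), without overlap.

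Genes of the same list also lay higher on the dorsal side. Gch1, which starts the synthesis of the tetrahydrobiopterin that tyrosine hydroxylase needs, was higher in every dorsal than in every ventral array, with a difference of -0.40 and an adjusted p of 0.533 in limma. Scg2, the vesicle protein secretogranin II, had a difference of -0.24 and did not overlap either. Both genes were dim, and neither exceeded the array median in any array. Their mean signals over all arrays were 2.596 for Gch1 and 2.375 for Scg2. The odorant and vomeronasal receptor genes had a median of 2.595, so these differences lay in signals that may not reflect transcripts of the genes. Chgb, chromogranin B, had a difference of 0.08, and Pnmt, which makes adrenaline from noradrenaline, had -0.02. Of the breakdown enzymes, Maoa had 0.29 and Maob -0.34.

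Receptors for dopamine and noradrenaline were measured for 7 of 14 listed genes, with 1 positive and 6 negative differences and a median of -0.12. The only adrenergic receptors measured were Adra1b, at -0.225, and Adra2c, at -0.01, and the rest were dopamine receptors. Drd3, a dopamine receptor, had 3.91, 4.05 and 4.01 in dorsal and 3.48, 3.17 and 3.72 in ventral arrays 1, 2 and 3, without overlap. Its difference was -0.53 ± 0.20 (SE), with an adjusted p of 0.469 in limma. Drd4, another dopamine receptor, had a difference of 0.26 and also did not overlap, with every ventral array higher. Drd5, the brightest of the list, had -0.20.

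Ligands that act on sympathetic precursors were measured for 9 of 11 listed genes, 4 with positive and 5 with negative differences, with a median of -0.06. Bmp7, a BMP ligand, had 4.03, 3.98 and 4.24 in dorsal and 4.48, 4.32 and 4.75 in ventral arrays 1, 2 and 3. Those regions did not overlap, and the difference of 0.44 ± 0.17 (SE) had an adjusted p of 0.481 in limma. Bmp4, a ligand of the same family, averaged 3.36 ± 0.39 dorsally and 3.69 ± 0.34 ventrally (SD, n = 3 each) and overlapped. Cxcl12, the chemokine that attracts migrating crest cells, had 5.47, 7.47 and 5.31 in dorsal and 5.04, 5.26 and 5.27 in ventral arrays. The regions were separated by a narrow gap, dorsal array 2 stood far above the rest, and the adjusted p was 0.528.

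Receptors on the precursors were measured for 11 of 12 listed genes, with 3 positive and 8 negative differences and a median of -0.05. Nrp1, a semaphorin receptor that guides crest cells and is also made by vessels, averaged 3.36 ± 0.26 dorsally and 2.92 ± 0.08 ventrally (SD, n = 3 each). Its adjusted p was 0.484 in limma, and its relative Nrp2 had a difference of -0.18, both without overlap. Cxcr4, the receptor of Cxcl12, was the brightest of the list with a difference of -0.01. Erbb3, the neuregulin receptor of crest cells, had -0.20.

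**Figure D3:**
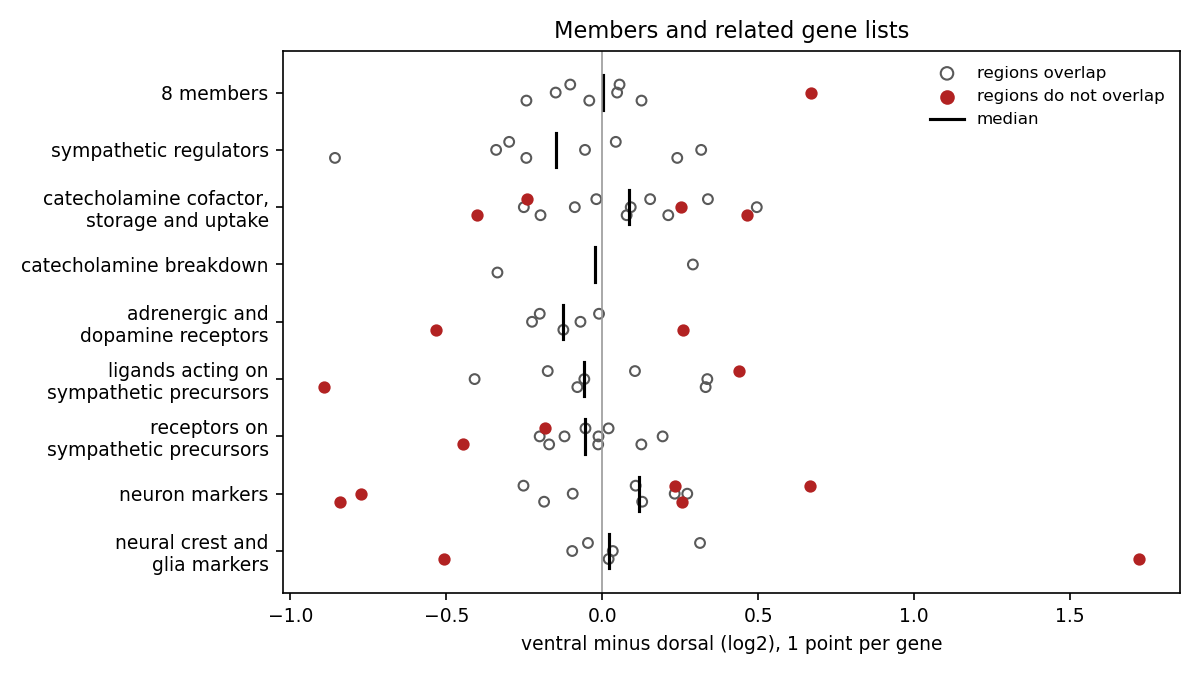
Ventral minus dorsal difference on the log2 scale (horizontal axis), with 1 point per gene, for the 8 members, the 6 lists of related genes and the lists of neuron and of neural crest and glia markers. Black lines are medians and filled red points are genes whose regions do not overlap. Of the members Ddc is the filled point, and points fall on both sides of 0 in each list shown.

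Markers of neurons were looked at because the members are read as sympathetic only where neurons are present. Of 12 measured neuron markers, 7 had positive and 5 negative differences, 0 passed the threshold and the median was 0.12. The mean signal of the list was 3.26 to 3.38 across dorsal arrays and 3.21 to 3.41 across ventral ones. By mean signal over all arrays, 0 of the 12 markers exceeded 4.66, the 95th percentile of the odorant and vomeronasal receptor genes. Brightness depends on a gene's probes, so these signals cannot settle whether neurons were present in the cut tissue. Tubb3, the tubulin of neurons, lay below the array medians on average, at 2.66 ± 0.51 dorsally and 2.57 ± 0.37 ventrally (SD, n = 3 each). Stmn2, a regulator of neuronal microtubules, had 3.56, 3.66 and 4.82 in dorsal and 3.86, 3.70 and 3.74 in ventral arrays 1, 2 and 3, so that dorsal array 3 stood alone.

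Npy, a peptide that sympathetic neurons release with noradrenaline, had 4.24, 4.63 and 4.07 in dorsal and 3.58, 3.38 and 3.46 in ventral arrays 1, 2 and 3. Every dorsal array was higher, and the difference of -0.84 ± 0.20 (SE) had an unadjusted p of 0.0069 and an adjusted p of 0.435 in limma. Nefm, a neurofilament chain, had a difference of -0.77, and Gap43, a growth cone protein and the brightest marker of the list, had 0.67, both without overlap. Prph at 0.23 and Uchl1 at 0.26 also lay wholly higher in ventral arrays. Of the 12 markers, 3 lay wholly higher in ventral and 2 in dorsal arrays, where the shares over all genes were 6.74% and 12.0%. Neuron markers thus had differences of opposite sign, none past the threshold.

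Of 7 measured markers of neural crest and glia, 4 had positive and 3 negative differences. By mean signal over all arrays, 0 of the 7 exceeded 4.66, the 95th percentile of the odorant and vomeronasal receptor genes. Sox10, the defining factor of crest and glia, had 4.27, 3.47 and 3.76 in dorsal and 3.80, 4.22 and 4.41 in ventral arrays 1, 2 and 3, which overlapped. Tfap2a, a crest factor, had a difference of -0.51 without overlap and an adjusted p of 0.465. Fabp7, a fatty acid binding protein of glia, had the largest difference of the list, 1.72 ± 0.21 (SE). It did not overlap either, with every ventral array higher, an unadjusted p of 0.00025 and an adjusted p of 0.239 in limma. The ventral mean of Fabp7, 5.46, lay above 4.66, and its dorsal mean of 3.74 did not. The part of these cell types in the member values was not tested. The 5 coelomic epithelium and adrenogonadal markers had mean signals of 3.49 to 3.93 across dorsal arrays and 3.42 to 3.50 across ventral ones.

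The remaining marker lists describe what else the cut tissue could hold, and no member of any of them passed the threshold. Cholinergic markers, which mark motor and some early sympathetic neurons, had a median difference of 0.04, with Slc18a3 at -0.34 and Slc5a7 at 0.15. Spinal motor neuron markers had -0.09, with Olig2 at -0.34, Isl2 at -0.11 and Mnx1 at -0.00. Notochord markers had -0.20, with Foxa2 at -0.31 and Noto at -0.20, and sclerotome markers -0.37, with Twist1 at -1.40 and Foxc2 at -0.50. All 6 sclerotome markers had negative differences, and 3 lay wholly higher in dorsal arrays, where the share over all genes was 12.0%. The notochord, spinal motor neuron, adrenogonadal and smooth muscle lists also had no gene with a positive difference. Splanchnic mesoderm markers had -0.06, with Foxf2 at -0.71, Gata6 at 0.45 and Gata4 at -0.06. Coelomic epithelium and adrenogonadal markers had -0.30, with Nr0b1 at -0.35, Cyp11a1 at -0.30 and Wt1, the brightest, at -0.01. Endothelial markers had 0.04, with Kdr at 0.18 and Cdh5 at -0.06, and blood stem and progenitor markers -0.11, with Ptprc at -0.25 and Runx1 at -0.17. Erythroid markers had -0.11, with the embryonic globin genes Hbb-bh1 at 0.38, Hbb-y at -0.37 and Hba-x, the brightest, at -0.29, all overlapping. These globin signals spread widely between replicates of 1 region. Hba-x ran from 9.41 to 11.12 in dorsal and from 7.08 to 12.11 in ventral arrays. The part of blood content in the other values was not tested. Smooth muscle markers had a median difference of -0.27, with Acta2 at -0.80 and Cnn1 at -0.37.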

How the data were processed

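The deposited values are log2 RMA signals of single probe sets. Per the submitters' processing notes, the authors used Affymetrix Expression Console with RMA, of unstated versions. The log2 scale was read from the range of values, 0.971 to 12.9. Of 25429 probe sets, 24675 had 1 gene symbol, 0 had several and 754 were unnamed and left out. All 24675 matched the GRCm38.p6 gene table by gene number. No probe-level data, detection calls or scan dates were used here.

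The 3 ventral arrays were set against the 3 dorsal arrays in limma 3.58.1 (R 4.3.3; lmFit and eBayes, two-sided, no filter on dim genes), with the replicate number as a block because the regions came from the same embryos. The labels do not say that equal numbers mean the same embryo. Deviations from the region means over all genes correlated at 0.039, -0.014 and 0.057 between arrays numbered 1, 2 and 3. Between arrays of unequal number the correlations ran from -0.064 to 0.026. As all are small, these values do not show the pairing and cannot settle it. An exact permutation test of 3 against 3 arrays cannot give a two-sided p below 0.1. The number of arrays limits the precision.

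The members and lists were chosen with earlier results of these data known. All members are described. Of each list, the rule names the 2 genes with the smallest p and the brightest gene, along with fixed partners of the members; not all of these are printed for the marker lists. Gch1, Scg2, Nrp2, Sox10, Pax2, Lhx1, Emx2, Prph, Uchl1, Dcx, Nefl and Ina fall outside the rule and were chosen after their values were seen. Adra1b and Adra2c also fall outside it and are named as the only adrenergic receptors measured. Motifs were searched in 250 bases before RefSeq starts. Alternatives were no block, cyclic loess, median centring, 2 filters on dim genes, an intensity trend, array weights and leaving out arrays.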

Additional observations from a re-analysis of the deposited data

How the results depend on the processing

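No member passed the threshold in any of the alternatives run. Ddc stayed higher in ventral tissue in all 16, with adjusted p in limma from 0.276 to 0.722, and Dbh stayed higher in dorsal tissue in the 15 that kept it. Without the replicate block the Ddc difference was 0.671, with an adjusted p of 0.370, the Th difference 0.0478 and the Dbh difference -0.243, and 1 gene passed, which was not a member. Gata3 turned from -0.0414 to 0.00359 after cyclic loess and 0.00249 after median centring. Leaving out arrays gave ranges of -0.12 to 0.0896 for Gata3, -0.00946 to 0.335 for Phox2a, -0.355 to 0.238 for Hand2, -0.281 to 0.064 for Insm1, -0.11 to 0.172 for Th, 0.374 to 0.948 for Ddc, -0.485 to -0.0436 for Dbh and -0.0229 to 0.165 for Slc18a1. The count of genes past the threshold then ran from 0 to 5, against 0 with all arrays, where 2522 had an unadjusted p under 0.05. Fits without single arrays had no block. Among genes with an unadjusted p under 0.05, 42.2% were higher in ventral tissue, against 52.4% after cyclic loess and 53.5% after median centring. The median of the ligand list went from -0.0573 to 0.0889 after cyclic loess and ran from -0.126 to 0.117 without arrays. The breakdown list, with 2 measured genes, went from -0.0226 to -0.336 when genes below the 25th percentile were left out, since 1 gene remained, and had no gene left above the median; it ran from -0.154 to 0.0613 without arrays. The filter at the median left out Gata3, Dbh and Slc18a1. Causes of the other shifts were not tested. Signals near those of genes from other organs limit what could be resolved.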

Other observations

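Dorsal array 3 held the highest of the 6 signals for Gata3, Phox2a and Dbh, 3 of the 8 members, and for the neuron markers Tubb3, Stmn2 and Dcx, 3 of 12. Ventral array 3 also held 3 of the 12 neuron markers, Nefl, Ina and Gap43, with a share over all genes of 14.6%. Of the other sympathetic regulators, dorsal arrays 1, 2 and 3 and ventral array 2 each held the highest signal for 2. Dorsal array 3 held the highest signal for 22.1% of all genes. Its 3 of 8 members lay above that share and its 3 of 12 neuron markers near it, both from few genes. The pattern was picked after the values were seen and was not tested. Dorsal array 2 held the highest signals of 2 of the 8 members, Hand2 and Slc18a1. It also held those of 2 of the 8 measured regulators, Hand1 and Hmx1, and of 1 of the 12 neuron markers, Npy. Its share over all genes was 23.1%. Ventral array 3 held the highest for Th and ventral array 2 for Ddc.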
